A study of Mus musculus with 5 samples.

Results

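Contacts of Morc1 with a 4C-seq bait placed in the Dppa2/4 domain were examined on the 129 and the CAST chromosome of 2 hybrid mouse embryonic stem cell clones, A6 and E2. The gene was taken as annotated in mm10, from 48431237 to 48630905, with 5 kb added on both sides. These limits overlapped 43 windows of 5 kb, out of 19632 windows of chromosome 16 and 545079 in the whole table. Both clones come from a Cas/129 hybrid line grown with 2i and LIF, and both carry the same 3 labelled CRISPR deletions, from 48308399 to 48311882 (interval 1), from 48396806 to 48437301 (interval 2) and from 48581359 to 48620367 (interval 3). The labels do not say on which chromosome a deletion lies, each library is of 1 clone, and no undeleted hybrid clone is among the samples. The alleles of a clone were therefore compared within the clone, and the other 3 of the 5 samples of the series, inbred libraries in another genome build, were not used here. In such a comparison, an effect of the deletions and a difference between the 129 and CAST strains cannot be told apart.

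MORC proteins are ATPases that compact chromatin, and Morc1 is known for silencing transposons in male germ cells. In pluripotent cells the gene lies beside Dppa2 and Dppa4, which encode chromatin proteins of early embryonic cells, in a domain whose replication time changes during differentiation. Circular chromosome conformation capture (4C-seq) reads out which DNA was ligated to the bait after crosslinking, so a read count stands for contact with the bait and not for expression. The series title names the question, which DNA elements on the same chromosome govern where and when replication occurs.

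The bait primers given in the labels are the same for both clones and are shown because they set the viewpoint from which Morc1 was seen. Capitals mark the bases of the forward primer that match the start of the HindIII site AAGCTT, the enzyme that cut the chromatin. All reads thus start beside HindIII sites, and a 5-kb window without such a site, or without a base that differs between the strains near it, can hold no assigned read.
forward: tttgggattttggagtgAAGC
reverse: ctgctggacttgtcaactgaa
The position of the bait was taken as the centre of a 50 kb gap without windows, at 48345000. From there it is 92.3 kb to the end of interval 2, and interval 2, which is 40.5 kb long, lies between the bait and the retained part of Morc1. Interval 2 removes 6.07 kb of the gene at its lower-coordinate end, interval 3 removes 39.0 kb, and together they cover 22.6% of the annotated gene. The lncRNA gene Gm41458, from 48600118 to 48613840, lies wholly within interval 3.

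The deposited values were RPM (reads scaled to the size of their column), averaged by the authors over 30 neighbouring windows. Undoing this average gave whole reads, with 1937280 reads in the 129 column of A6, 1311580 in its CAST column, 2397572 for 129 in E2 and 1603247 for CAST. From here on, RPM of a window counts the reads of that window alone. Reads fell in 22 of the 43 Morc1 windows. In A6 the region held 46220 reads of 129 against 56102 of CAST, and in E2 80448 against 74789. This was 9.90% and 18.0% of the chromosome 16 reads of these columns in A6, and 13.6% and 19.3% in E2. Per window outside the deletions, Morc1 was read more than any other of 933 genes of chromosome 16 with at least 10 reads in 3 of the 4 columns, and it ranked 4 in the 129 column of A6. The median gene held between 3.72 and 4.81 RPM per window, and Morc1 held 760 and 1187 on 129 and CAST in A6 and 1071 and 1225 in E2. Other genes near the bait were also read far above that median. Trat1 held 597 and 574 in A6 and 657 and 664 in E2. Retnlb held 951 on 129 in A6, above Morc1. Retnlg was below the median on CAST, at 0.252 in A6 and 0.620 in E2.

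Within the deleted intervals, Morc1 was read almost entirely on CAST. Of the 2 windows of the region wholly inside interval 2, the one over the lower-coordinate end of the gene (48430001 to 48435000) held reads. Clone A6 had 2 reads of 129 against 728 of CAST there, and clone E2 had 3 against 1040. In A6 129 made up 0.274% of these reads, with a 95% Wilson interval from 0.0752 to 0.993%. In E2 it made up 0.288%, with bounds of 0.0979 and 0.842%. The share was alike in the clones, with overlapping intervals.

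Interval 3 wholly contained 7 windows, and 4 of them held reads. Together, clone A6 had 1 read of 129 against 2519 of CAST, and clone E2 had 5 against 7039. In A6 129 made up 0.0397%, with a 95% Wilson interval from 0.00701 to 0.224%. In E2 it made up 0.0710%, with bounds of 0.0303 and 0.166%. The few 129 reads were not at 1 place. In A6 the single read fell at 48615001 to 48620000, where CAST had 1418. In E2, 1 read fell there against 1147 on CAST, 1 at 48585001 to 48590000 against 5863, and 3 at 48605001 to 48610000 against 8. The window at 48600001 to 48605000, which overlaps the start coordinate of Gm41458, had 0 reads of 129 in both clones against 8 and 21 of CAST. Taking 3 counts of the total as the limit for a count of 0, these allow a 129 share of up to 37.5% in A6 and 14.3% in E2. On CAST, the interval was read at 1907 RPM in A6 and 4363 RPM in E2, a difference of 2.29 times between the clones.

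The edge windows were 3 that straddled an end of a deletion. At 48435001 to 48440000, where interval 2 ends, few reads were found, 19 of 129 against 12 of CAST in A6 and 22 against 6 in E2. At 48580001 to 48585000, where interval 3 begins, 129 held 0 reads in A6 and 1 in E2, while CAST held 4247 and 5462. By the same limit of 3 counts, the 0 of 4247 in A6 allows a 129 share of up to 0.0706%. The third, at 48620001 to 48625000, held 0 reads in every column. At the end of interval 2 the reads were thus present on 129, and at the start of interval 3 they were nearly all missing, as inside the interval. With windows placed 5 kb further along, which the table also allows, 129 had 0 reads in A6 and 1 in E2 inside interval 2, and 0 and 5 inside interval 3, so an edge value may belong to the neighbouring window. Intervals and limits cover counting error alone, because PCR reads that carry no molecular identifier need not be separate molecules.

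**Figure D1:**
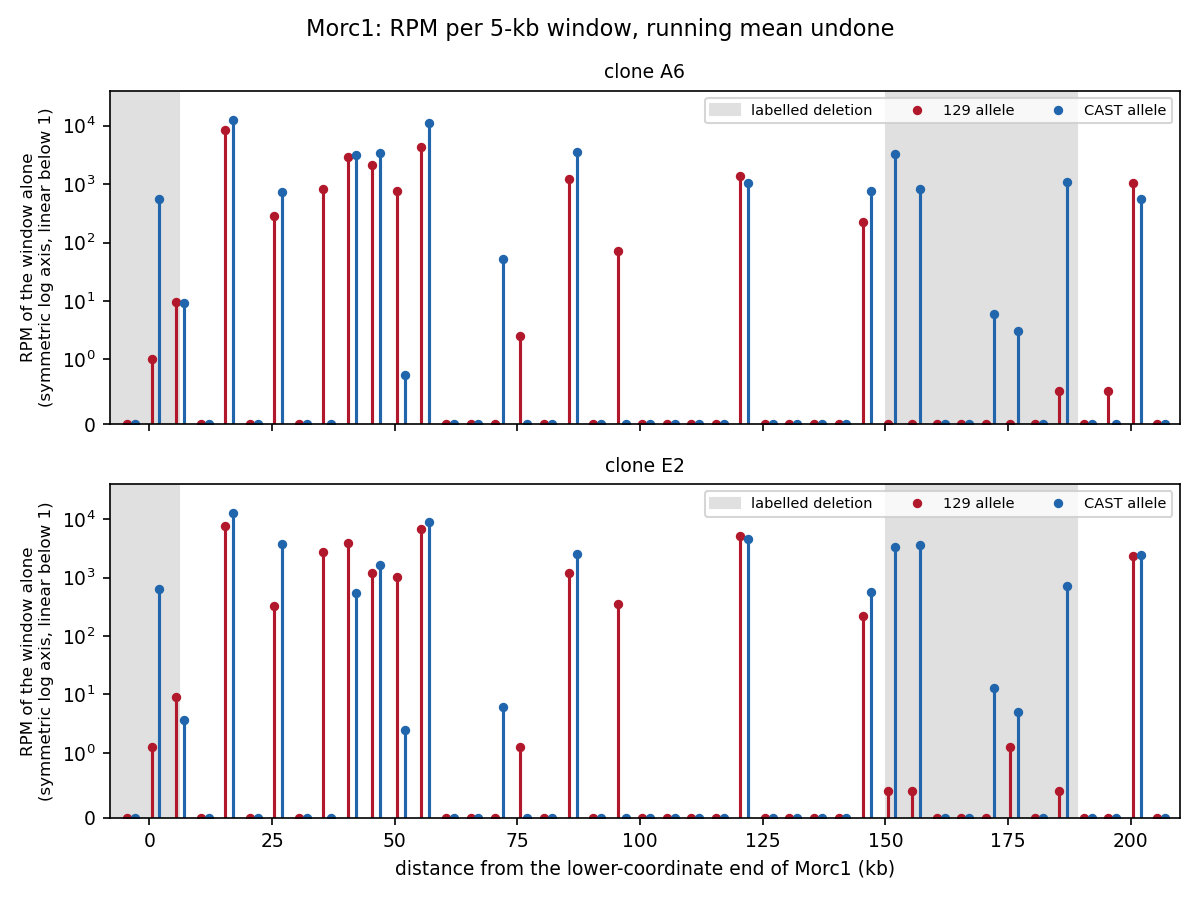
RPM of each 5-kb window of Morc1 and 5 kb on both sides (vertical axis, symmetric log scale, linear below 1) against the distance from the lower-coordinate end of the gene in kb, for clone A6 (top) and clone E2 (bottom), with the 129 allele in red and CAST in blue and labelled deletions shaded. Inside the shaded intervals CAST reaches 3634 RPM while 129 stays at or below 1.24 RPM in windows wholly within them, and between the intervals both alleles are read.

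The deposited running means did not show this loss. At 48430001 to 48435000, inside interval 2, the deposited RPM of 129 was 668 against 1356 for CAST in A6, and 802 against 1316 in E2. Averaged over the 7 windows inside interval 3, the deposited RPM of 129 was 204 against 369 for CAST in A6, and 345 against 639 in E2. Each of these values averages 30 windows, 150 kb in all, most of it outside the intervals. For the window at 48430001 to 48435000, these windows lie on both sides of the gap taken as the bait position. From the running means, the 129 share of reads inside interval 3 came out at 45.1% in A6 and 44.8% in E2.

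**Figure D2:**
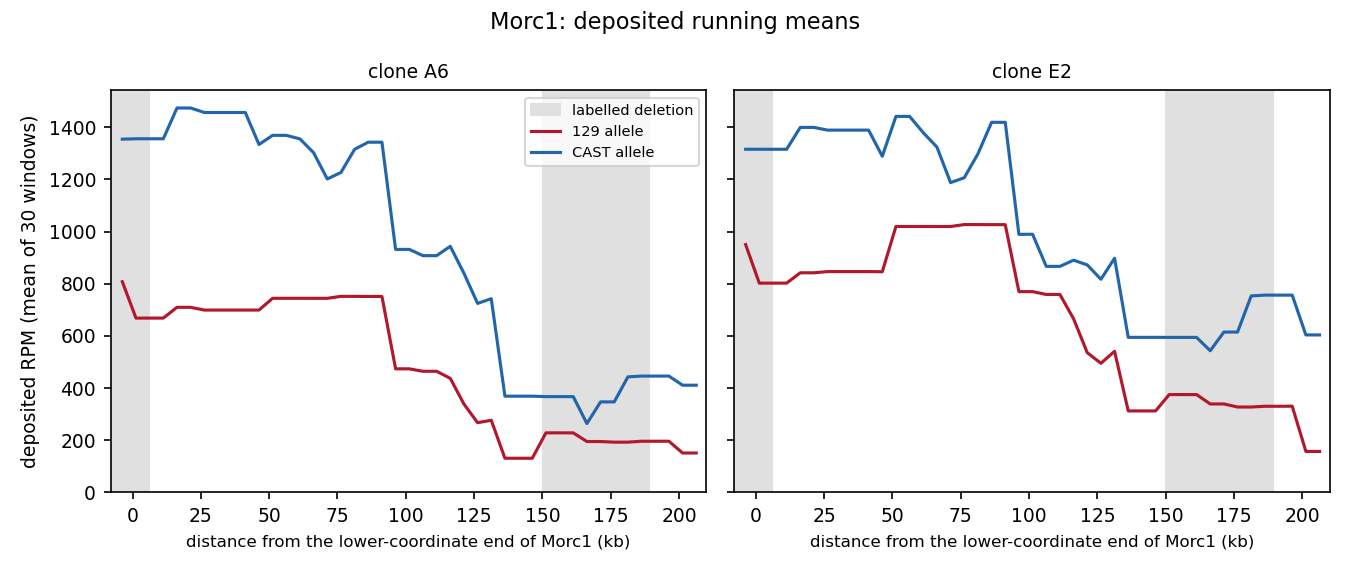
Deposited RPM, each a mean over 30 windows (vertical axis), against the distance from the lower-coordinate end of Morc1 in kb, for clones A6 (left) and E2 (right), 129 in red, CAST in blue, labelled deletions shaded. The 129 line stays above 100 RPM in both intervals and below the CAST line throughout, so the deletions cannot be seen as gaps.

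The retained part of Morc1 held 31 windows that touched no deletion, 28 of them between the intervals and 3 beyond interval 3. It was read on both chromosomes, at a level that in RPM was lower on 129 in both clones but differed between them. In reads, 129 held 46198 against 48596 of CAST in A6, and 80417 against 61242 in E2. In E2 the direction thus rests on scaling each allele to its column. Summed over these windows, 129 had 23565 RPM and CAST 36787 RPM in A6, and 33187 and 37962 in E2. The means were 28376 ± 6803 RPM on 129 and 37374 ± 830 on CAST (SD, n = 2), and the ranges did not overlap. The 129 sum was 1.41 times higher in E2 than in A6, and the CAST sum 1.03 times, so the clones differed mostly on 129. The ratio of 129 to CAST, as log2, came to -0.64 for A6 and -0.19 for E2, a mean of -0.42 ± 0.32 (SD, n = 2). An exact two-sided test over 2 pairs cannot go below p = 0.5, so none is given for this value. With the deposited running means in place of own reads the mean was -0.78 ± 0.29.

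The ratio rested in part on 1 window. The window at 48445001 to 48450000, which starts 7.70 kb from the end of interval 2, was the highest in every column, with 35.3% and 33.5% of the retained reads on 129 and CAST in A6, and 23.2% and 34.0% in E2. Without it the ratio came to -0.68 for A6 and 0.023 for E2 (log2), so E2 no longer had less on 129.

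In the fit over all genes of chromosome 16, with the deleted windows left out of every gene, Morc1 was lower on 129 by a log2 of -0.42 (SE 0.19), which did not pass the threshold (limma with clone as a block, adjusted p = 0.12). The fit used log2(RPM per window + 6.97) and Benjamini-Hochberg adjustment at 0.05, and 14.9% of the 933 genes passed, 7.61% higher and 7.29% lower on 129. The median log2 over all genes was 0.09. Over its alternatives the adjusted p of Morc1 ran from 0.000683 to 0.224. It passed on recovered reads with edgeR (log2 -0.29, adjusted p = 0.00609) and DESeq2 (log2 -0.38, adjusted p = 0.000834), which also placed 41.8% and 27.3% of the genes past the threshold. It passed for windows with reads of both alleles (limma log2 -0.51, adjusted p = 0.0415), where 9.30% of genes did, and with the deleted windows kept (limma log2 -0.66, adjusted p = 0.00761), where 15.2% did and the loss of the intervals itself enters. With the running means it passed as well (limma log2 -0.78, adjusted p = 0.000683), as did 17.3% of genes. It did not pass with 4 times or with 0.25 of the pseudocount, where 8.90% and 24.7% of genes did, or without the clone block, where 0.322% did. Both clones were lower on 129 in this fit. The SE comes from a spread pooled over genes of like level, in which the difference between the 2 clones at Morc1 itself had no weight. Nothing in the labels says whether the clones were cultured separately.

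The allele ratio varied along the retained part. In the first 50 kb after interval 2, from 48440001 to 48490000, it came to -0.65 for A6 and -0.23 for E2 (log2). These rest on 38511 reads of 129 against 40748 of CAST in A6, and on 57727 against 44979 in E2. In the next 50 kb it was -1.45 and -0.71, on 2573 against 4744 reads and on 3740 against 4068. In the last 40 kb before interval 3 it was -0.19 and 0.08. The 3 windows beyond interval 3 gave 0.92 in A6 and -0.01 in E2. Only the first 2 of these 4 pieces had the same direction in both clones.

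Stretches of equal length outside Morc1 were set beside it, the upstream one at like distance from the bait and the downstream one farther away. The 140 kb between the intervals came to -0.69 for A6 and -0.21 for E2. The mirror stretch at the same distance upstream of the bait, 48110001 to 48250000, had 0.64 and 0.67, on 23023 reads of 129 against 9957 of CAST in A6 and 29985 against 12507 in E2. The next 140 kb downstream of Morc1, which hold part of the T-cell adaptor gene Trat1, had -0.40 and -0.65. The upstream stretch was thus higher on 129 in both clones and both downstream stretches lower. This did not hold throughout either side. Dppa4, upstream of the bait, was lower on 129 in both clones, with a log2 of -1.35 and -1.06. Myh15, farther downstream, was higher, with 1.36 and 1.75. The differences between the stretches were not tested. The stretches were chosen after the values of the region were known.

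**Figure D3:**
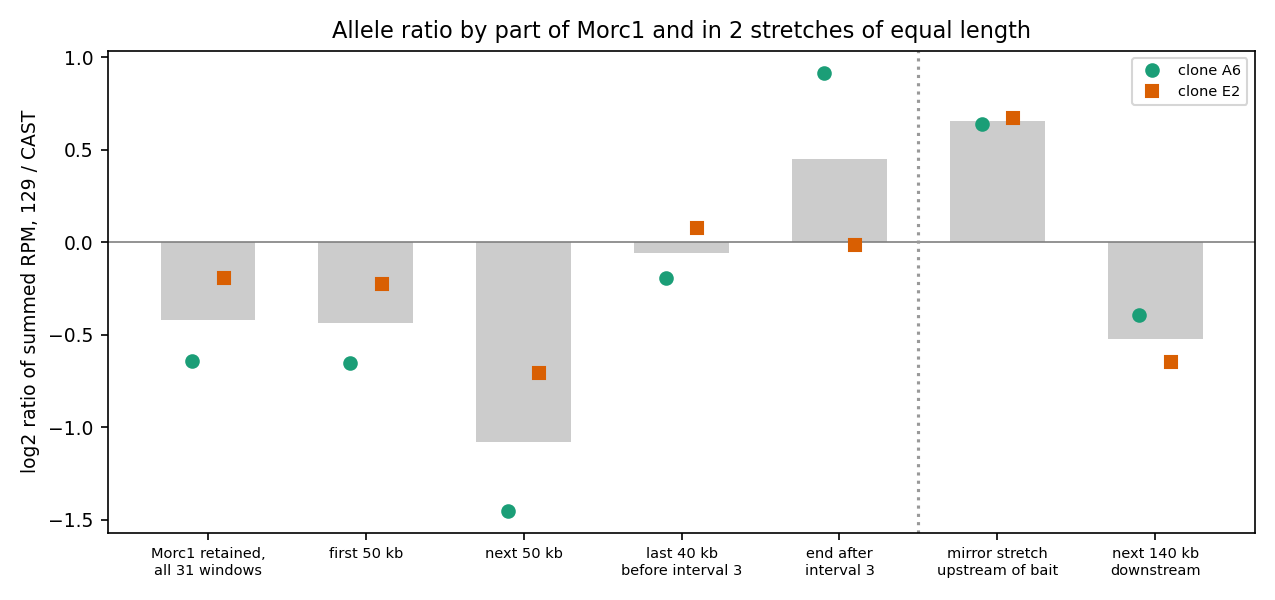
Log2 ratio of summed RPM, 129 over CAST (vertical axis), for the 31 retained windows of Morc1, for 4 pieces of them in order along the chromosome, and, right of the dotted line, for the mirror stretch upstream of the bait and the 140 kb downstream of Morc1. Bars are means of the 2 clones, circles clone A6 and squares clone E2. The mirror stretch is above 0 in both clones at 0.64 and 0.67, and the retained Morc1 windows together are below 0 in both.

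At 5-kb resolution some retained windows were higher on 129 and others on CAST, and most of those higher on 129 had few or no CAST reads. Of the retained windows, 13 had at least 10 reads over the 4 columns and entered a fit over 3986 windows of chromosome 16 (limma on log2(RPM + 22.5), clone as a block). Of these 13, 7 passed at an adjusted p of 0.05, 4 higher and 3 lower on 129. Over all windows 7.73% passed, 4.21% higher and 3.51% lower. Of the 13, 4 reached 10 reads through 1 allele alone and so had to differ, and 3 of these 4 are among the 7. These 3 are higher on 129. Over all windows, 72.3% had fewer than 10 reads on at least 1 allele. That share can take in windows with fewer than 10 reads on each allele, which did not have to differ. In the other window that passed higher on 129, at 48470001 to 48475000, the clones went in opposite directions. Among the 599 windows with at least 500 reads, 41.7% passed, 27.5% higher and 14.2% lower, and 7 of the 12 Morc1 windows of that depth did. The median log2 was -0.56 over the 13 windows and 0.25 over all windows. The fit gave every window of like level the same spread, so that a window whose clones differ can still pass. The number that passed moved with the method. Without the clone block 2 of the 13 passed, against 2.96% of all windows. In edgeR 9 passed against 70.0% of all, and in DESeq2 4 against 33.6%. The 2 that passed without the block and all 4 in DESeq2 had reached 10 reads through 1 allele alone. So had 4 of the 9 in edgeR. No window well read on both alleles thus passed in DESeq2 or without the block. With 4 times the pseudocount 7 passed against 2.94% of all, and with 0.25 of it 7 against 24.4%. Of 10 windows with reads of both alleles 6 passed against 6.66%, and with the running means 12 of 13 passed, all lower on 129, against 20.9%. Among the 6 is the window at 48480001 to 48485000, which had only 1 CAST read in A6 and 4 in E2. The shares beside these alternatives are over windows of any depth, while 12 of the 13 Morc1 windows had at least 500 reads.

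The highest windows were read on both alleles and, in RPM, were lower on 129. At 48445001 to 48450000 clone A6 had 16326 reads of 129 against 16297 of CAST, and clone E2 18669 against 20793. In RPM this was 8016 ± 441 on 129 and 12613 ± 390 on CAST (SD, n = 2), without overlap, and it did not pass (limma log2 -0.65, SE 0.32, adjusted p = 0.224). It passed in edgeR (adjusted p = 0.0110) and, in limma, with 4 times the pseudocount (adjusted p = 0.0475). At 48485001 to 48490000 there were 8569 against 14815 reads in A6 and 16613 against 14678 in E2. This was 5613 ± 1757 RPM on 129 and 10157 ± 1497 on CAST, again without overlap, and it did not pass (limma log2 -0.88, adjusted p = 0.0748). It passed in edgeR (adjusted p = 0.00177) and, in limma, with 4 times the pseudocount (adjusted p = 0.00370) and for windows with reads of both alleles (adjusted p = 0.00935). Both passed with the running means. These were the most and the next most read windows of the retained part.

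In 3 tested windows nearly all reads were of 129, in both clones. At 48465001 to 48470000 the 129 column held 1592 reads in A6 and 6780 in E2, and CAST held 0 in both. With 3 reads per library as the limit for a count of 0, 129 was at least 358-fold higher in A6 and at least 1505-fold higher in E2. At 48525001 to 48530000 the 129 column held 141 and 857 reads and CAST again 0. This was at least 31.7-fold higher in A6 and at least 190-fold higher in E2. At 48480001 to 48485000 A6 had 1469 reads of 129 against 1 of CAST, and E2 2465 against 4. CAST made up 0.0680% in A6, with a 95% Wilson interval from 0.0120 to 0.384%, and 0.162% in E2, with bounds of 0.0630 and 0.416%. No p is given for these windows, since each reached the read minimum through 129 alone.

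Such windows were common on chromosome 16. A CAST count under 1 per 100 reads of 129 was found in 3 of the 13 Morc1 windows and in 40.5% of all 3986. No 129 read was found in 1 of the 13, at 48500001 to 48505000, with 68 and 10 reads on CAST, and in 20.2% of all. No CAST read was found in 2 of the 13 and in 36.5% of all. In 9 of the 13 windows the RPM of the 2 alleles did not overlap between clones, against 80.9% of all windows. Of these 9, 4 reached 10 reads through 1 allele alone and so had to differ. Over all windows, 72.3% had fewer than 10 reads on at least 1 allele, which does not by itself fix a difference. By direction, 129 was higher in both clones in 4 windows and CAST in 7, against 51.8% and 36.5% of all windows, and the clones differed in 2. Of the 4, 3 reached 10 reads through 129 alone, and of the 7, 1 through CAST alone.

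The other 4 windows that passed included 3 that were lower on 129 in both clones. At 48515001 to 48520000 clone A6 had 2427 reads of 129 against 4676 of CAST, and clone E2 2880 against 4058. That is 1213 ± 35.0 RPM against 3028 ± 724 (SD, n = 2; limma log2 -1.28, SE 0.37, adjusted p = 0.0139, and 0.0599 with no filter on low values). At 48575001 to 48580000, the last window before the edge of interval 3, clone A6 had 442 against 996 and clone E2 535 against 907. This gave 223 ± 3.31 RPM on 129 and 658 ± 136 on CAST (limma log2 -1.46, adjusted p = 0.0359, and 0.0735 with 4 times the pseudocount). It was not called in edgeR (adjusted p = 0.0887). Neither window was called in DESeq2 (adjusted p = 0.663 and 0.593) or, in limma, without the clone block (adjusted p = 0.0916 and 0.140). In neither window did the alleles overlap.

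Both remaining windows that passed differed between the clones. At 48455001 to 48460000 A6 had 553 reads of 129 against 959 of CAST, and E2 799 against 5968 (limma log2 -2.35, adjusted p = 3.68e-06). The direction was the same, with a log2 of -1.30 in A6 and -3.40 in E2, and the CAST level was 2213 ± 2102 RPM, a spread nearly as large as its mean. At 48470001 to 48475000 there were 5798 against 4088 reads in A6 and 9442 against 872 in E2. It passed (limma log2 1.37, adjusted p = 0.00622), but its log2 was -0.065 in A6 and 2.80 in E2, so the call rests on E2 alone. These windows differed between clones mainly in the CAST column. Neither was called in DESeq2 (adjusted p = 0.373 and 0.697) or, in limma, without the clone block (adjusted p = 0.0963 and 0.176).

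A further 3 deeply read windows did not pass, and their alleles overlapped between clones. At 48475001 to 48480000 clone A6 had 4204 reads of 129 against 4588 of CAST, and E2 2959 against 2664 (limma log2 -0.56, adjusted p = 0.322). At 48550001 to 48555000 they were 2654 against 1388, and 12616 against 7391 (limma log2 0.27, adjusted p = 0.534). Both alleles of that window were read more in E2, with a log2 of 0.36 in A6 and 0.18 in E2. At 48630001 to 48635000, over the higher-coordinate end of Morc1 beyond interval 3, they were 2017 against 720, and 5799 against 3897 (limma log2 0.44, adjusted p = 0.360).

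**Figure D4:**
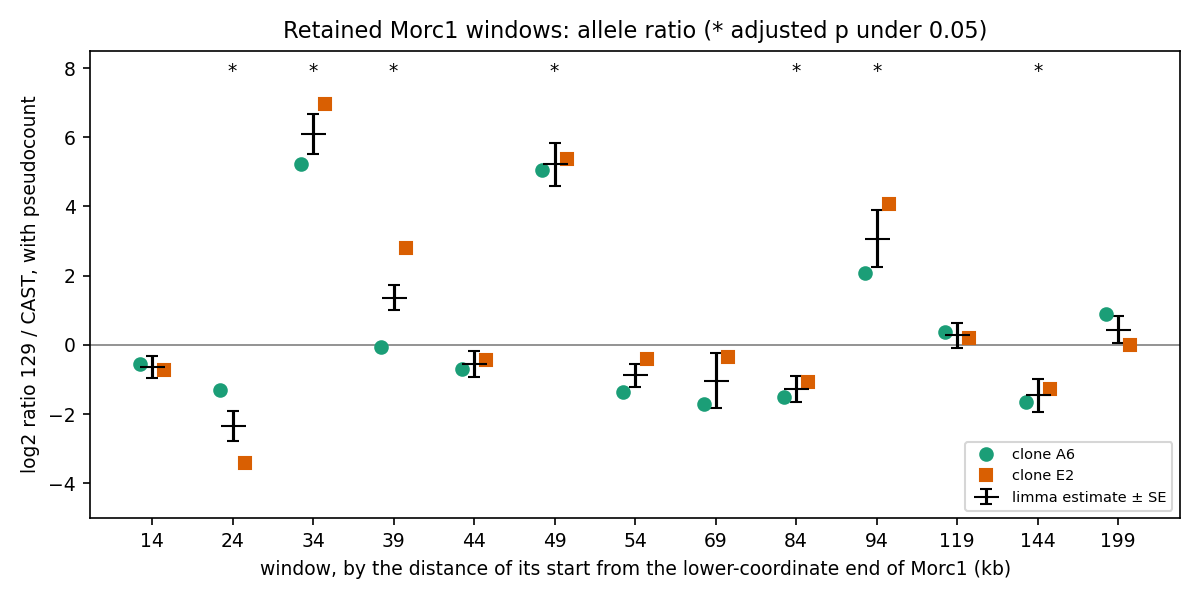
Log2 ratio of 129 to CAST for the 13 tested windows of retained Morc1 (vertical axis, from RPM + 22.5), in order along the gene and named by the distance of their start from its lower-coordinate end in kb. Circles are clone A6, squares clone E2, black marks the limma estimate with its SE, and an asterisk an adjusted p under 0.05, also for the 3 windows that reached the read minimum through 129 alone. The estimates of 3 windows lie above 3, and for the window starting at 48470001 the clones lie apart, at -0.065 and 2.80.

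The clones ordered the windows alike on each allele. Across the 13 tested windows, Pearson's r of log2(RPM + 10) between A6 and E2 was 0.94 on 129 and 0.93 on CAST, and between the alleles of a clone it was 0.64 in A6 and 0.52 in E2. These values describe windows of the same libraries, whose levels share the HindIII sites of the region, and windows are not replicates. Of the 13, 4 reached 10 reads through 1 allele alone and had to differ between alleles. The read minimum itself thus enters the r between alleles, and its contrast with the r between clones was not tested.

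Neighbours of Morc1 in the domain went in both directions in the same gene fit. Dppa4 was lower on 129, with 1879 reads of 129 against 3307 of CAST in A6 and 2911 against 4095 in E2 (limma log2 -1.21, adjusted p = 0.000357). For the gene without its 5 kb flanks this was not called (limma log2 -0.59, adjusted p = 0.171). The resistin-like gene Retnla was higher, with 104 and 575 CAST reads (limma log2 3.49, adjusted p = 9.89e-25). Retnlg, of the same family, had 1993 reads of 129 against 1 of CAST in A6 and 2346 against 3 in E2, and is given with no test because it reached the read minimum through 129 alone. Myh15, a myosin heavy chain gene, was also higher (limma log2 1.55, adjusted p = 0.00933), but not called for windows with reads of both alleles (limma log2 0.91, adjusted p = 0.212). Without the clone block Dppa4, Retnla and Myh15 were not called (limma adjusted p = 0.0758, 0.0758 and 0.117). Retnlb (limma log2 0.41, adjusted p = 0.169), Trat1 (0.02, 0.963) and Dzip3, a ubiquitin ligase gene (-0.65, 0.225), did not pass, as Morc1 did not. Dzip3 passed for windows with reads of both alleles (limma log2 -1.42, adjusted p = 5.33e-05), and Retnlb with windows placed 5 kb further along (limma log2 1.05, adjusted p = 0.0156). Of the 8 listed neighbours found in the annotation, Dppa2 had too few reads outside the deletions to be tested.

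By the log2 ratios of the 2 clones, the genes most like retained Morc1 outside the bait domain were Atp13a4, Ncam2, Alcam, Fgd4 and Mgrn1, out of 753 genes with at least 100 reads. Their distances from Morc1 in these ratios ran from 0.0277 to 0.114. Atp13a4, a transport ATPase gene, had 235 reads of 129 against 430 of CAST in A6 and 486 against 436 in E2. Mgrn1, a ubiquitin ligase gene, had 1 against 82, and 3 against 28, so its ratio rests on few 129 reads and on the pseudocount. Mgrn1 is given with no test because it reached the read minimum through CAST alone. None of the others passed (limma adjusted p from 0.608 to 0.665). A likeness over 2 clones is a weak measure.

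The other MORC genes were barely read. Morc2a on chromosome 11, Morc2b on chromosome 17 and Morc3 at the far end of chromosome 16 held 0 reads of their own in every column, over 12, 6 and 12 windows. Morc4 on chromosome X held 0 reads of 129 in both clones, and 14 of CAST in A6 and 72 in E2, all in 1 of its 13 windows. The deposited means over Morc3 were still above 0, at 2.85 RPM for 129 against 0.280 for CAST in A6 and 3.62 against 0.536 in E2. Of the family, contact with the bait was measured in depth for Morc1 alone.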

How the data were processed

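4C-seq libraries were cut with HindIII and DpnII, per the labels' protocols. The submitters' processing notes name Bowtie2, mm9 and mm10, while versions and the way reads were assigned to strains are not given in sources used here. The table deposited by the authors holds RPM per allele in 5-kb windows of mm10, as a running mean over 30 windows, and its columns headed svim were read as 129. Steps between values were whole multiples of 1 read for 100% of values (tolerance 0.01), and undoing the mean left 0 windows below 0. A value was taken to average the 15 windows before its own, its own and the 14 after, because 15 windows are missing at the start of the table. A placement 5 kb further along was tried as an alternative chosen after seeing the data.

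Gene limits came from RefSeq's annotation of GRCm38.p6, the build of mm10. Genes and windows of chromosome 16 with at least 10 reads were tested with limma 3.58.1 (R 4.3.3) at an adjusted p of 0.05, with the median level as pseudocount. Clone was a block because both alleles of a clone were read in the same library. edgeR 4.0.16 and DESeq2 1.42.0 were run on recovered reads as alternatives. Each fit with the clone block had 1 residual degree of freedom. In the main limma fits the prior degrees of freedom came out infinite. The p of a gene or window therefore takes its spread from the others and not from how far its own clones differ. The tests were tried on simulated reads made with more than 1 estimate of the spread and several seeds. Large differences nearly always came back with the right sign, but the share that passed varied widely from run to run. The smallest differences simulated, which were larger than that of retained Morc1, seldom passed. Calls are therefore given beside the reads they rest on.

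The members, lists and named items were chosen with earlier results of these data known. Named were Morc1, its neighbours in the bait domain, the MORC family, the 5 genes most like it, and within it the 10 most read retained windows, the edge windows and the deleted windows with a 129 read. Other windows were named after their values were seen, as were the minimum of 500 reads, the pieces of 50 kb and the stretches compared. Guca1c, a listed neighbour, did not match a gene of chromosome 16 in the annotation used here.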

Additional observations from a re-analysis of the deposited data

How the results depend on the processing

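The retained Morc1 ratio (mean log2 -0.42) stayed below 0 under each alternative run, between -0.33 without the most read window and -0.63 with scaling to reads within 5 Mb of the bait, and at -0.78 with the running means not undone. Leaving out 1 clone gave -0.64 and -0.19. In the gene fit Morc1 stayed lower on 129 and passed in edgeR (-0.29), in DESeq2 (-0.38), with the running means (-0.78), with the deleted windows kept (-0.66) and for windows with reads of both alleles (-0.51). The 139 genes past the threshold became 390 in edgeR, 255 in DESeq2, 230 with the pseudocount divided by 4, 83 with it multiplied by 4, 3 with no replicate block and 53 for windows read on both alleles. The 308 windows became 2789, 1339, 972, 117, 118 and 115 in that order, and 835 with the running means. Of the 13 Morc1 windows, 7 passed, against 4 in DESeq2, 2 with no replicate block and 12 with the running means. The 4 in DESeq2 and the 2 with no replicate block all reached the read minimum through 1 allele alone. The running means reversed the windows starting at 48465001 (-0.88), 48470001 (-0.88), 48480001 (-0.68), 48550001 (-0.99) and 48630001 (-1.65), and the genes Dppa4 (0.053), Trat1 (-0.058) and Dzip3 (0.70). For the window starting at 48470001, leaving out 1 clone gave -0.065 and 2.80.

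The mean 129 share inside interval 2, 0.281%, became 47.4% with the running means and 0.00758% with windows placed 5 kb further along. Inside interval 3 it was 0.0553%, then 44.9% and 0.0220%, and 0.0314% with windows assigned by their centre. Leaving out 1 clone gave 0.274 and 0.288%, and 0.0397 and 0.0710%. A running mean mixes 30 windows by construction, and the cause of the other differences was not tested. One clone leaves no residual degree of freedom, so the counts have no such alternative.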
